A study of Mus musculus with 15 samples.

Results

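Exc_17 is a small group of excitatory neurons of the mouse prefrontal cortex (PFC). It is 1 of the 26 excitatory clusters into which the authors divided the excitatory cells of their single-cell RNA sequencing, and its members are all cells that carry this cluster name in the deposited table of cells. There were 509 such cells among 20377 cells of excitatory clusters (2.50%) and 35360 retained cells in all. Of the 509, 423 came from 12 libraries of adult mice (P60 in the study, 8 to 10 weeks in the labels) and 86 from 3 libraries of mice at P21 (3 weeks). All mice were C57BL/6N males with no allele or transgene named, and each library pooled the tissue of 2 mice. The adult mice had been trained to press a lever, first for food and then for an intravenous infusion of cocaine or saline, and were taken at the end of the maintenance phase (cocaine in libraries 1 and 4, saline in libraries 2 and 3), after 48 h of withdrawal (cocaine in libraries 6 and 8, saline in libraries 5 and 7) or after 15 days of withdrawal (cocaine in libraries 9 and 10, saline in libraries 11 and 12). By the study's account the catheters were implanted at P60, so the adult tissue was taken after P60. It was taken later after implantation in the withdrawal phases than at maintenance. P60 is used here as the name of this group. The P21 mice received no treatment. The methods count 4 mice at P21 beside 3 libraries, so some of these libraries may share mice, and p-values that involve P21 may then be too small. One label names the nucleus accumbens as the tissue, whereas titles, source names and methods name the PFC. The layer genes and the glutamatergic markers given below are those of cortical projection neurons.

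Excitatory neurons of the cortex release glutamate and differ by the layer of their soma and the target of their axon. Intratelencephalic neurons project within the cortex and to the striatum, extratelencephalic neurons of layer 5 project to the brainstem, and corticothalamic neurons of layer 6 project to the thalamus. When set beside other cortical areas, the study grouped Exc_17 with Exc_6, Exc_15 and Exc_16 and with layer 5 intratelencephalic neurons of a motor area. Neurons also carry immediate early genes, which are transcribed within minutes of synaptic activity or of handling of the tissue and encode transcription factors (Fos, Npas4, Egr1), a synaptic protein (Arc) and signalling proteins.

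Exc_17 had 5 to 84 cells in a P60 library and 26 to 32 in a P21 library, which together held 89084 to 1299445 and 226786 to 335353 unique molecular identifiers (UMIs, each counting 1 captured mRNA molecule). The retained cells of whole libraries held 8375172 to 42892922 UMIs at P60 and 19765973 to 40972771 at P21. The UMIs of the members of a library were summed and scaled to a common library total (CPM), and libraries with at least 10 members were compared: 9 at P60 (5 saline, 4 cocaine) and 3 at P21. Over P60 cells, the median member had 15688 UMIs (rank 10 among the 26 clusters), 4250 detected genes and 1.98% mitochondrial UMIs (rank 23). Of the 509 members, 23 carried a barcode that also occurred in another library, and 0 barcodes were shared between members.

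The markers of excitatory neurons were present in every library. Slc17a7, the vesicular glutamate transporter of cortical neurons, was at 281 ± 39.6 CPM (SD, n = 9) against a mean of 404 CPM over the other 25 clusters, and Neurod6, a transcription factor of cortical projection neurons, was at 614 ± 88.4 CPM against 460. Snap25, a fusion protein of synaptic vesicles, was at 3197 ± 542 CPM against 4470. The 8 excitatory markers together stood at rank 19 of 26. The 8 inhibitory markers summed to 0 to 28.6 CPM in the P60 libraries and to 13.7 to 29.5 CPM at P21. Markers of astrocytes summed to 388 to 526 CPM at P60, and those of mature oligodendrocytes to 63.6 to 192 CPM, about as in the other excitatory clusters of saline libraries (352 to 592 and 70.6 to 183 CPM). Microglial markers summed to 0 to 66.8 CPM at P60 but to 178 to 482 CPM at P21. The class column of the authors' own table put 7 of the 86 P21 members into another class (5 microglia, 1 astrocyte, 1 endothelial cell) and 1 of the 423 P60 members (a microglia). Without these cells the microglial markers were at 21 to 60.4 CPM at P21. The gene comparisons between ages were therefore repeated with cells of the excitatory class alone, whereas the shares and the summed levels at P21 include all members (3, 1 and 3 of 28, 32 and 26 were in another class). The astrocyte markers were at 589 to 863 CPM at P21, above every P60 library, and at 581 to 643 CPM with the excitatory class alone. Those of mature oligodendrocytes were at 86.7 to 272 CPM and those of endothelial cells at 20.6 to 164 CPM at P21 (0 to 52.5 CPM at P60). The part of these cells in the age differences below was not tested beyond leaving out the other classes. Of the cells of the other excitatory clusters, 4.60% at P21 and 0.0642% at P60 were likewise in another class.

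Levels in Exc_17 against the other clusters are given as a description without a test, because these genes also formed the clusters. Of 5773 genes at 20 CPM or more in Exc_17 at P60, 46 (0.797%) were over 2-fold above the mean of the other clusters and 298 were higher than in any other cluster, but 0 of these exceeded the next cluster by more than 1.5-fold. Exc_17 was thus marked by a combination of genes shared with its neighbours. Gpr83, a G protein-coupled receptor for a neuropeptide (NCBIM37, the build of the counts, chr9:14664654-14675233, plus strand), led the list. Its level lay between 110 and 201 CPM in the 9 libraries (median 131), against 40.5 CPM over the other clusters (log2 ratio of the means 1.78, SD of the ratios within libraries 0.30, n = 9). The next cluster, Exc_11, was at 135 CPM. Synpr, which encodes the vesicle protein synaptoporin, was at 639 ± 99.3 CPM against 228, and Krt12, a keratin best known from the cornea, at 419 ± 56.0 CPM against 150. Both overlap a gene on the other strand (Gm15913 and A830036E02Rik), and whether the counting used strand is not given in the sources used here. Coch, an extracellular matrix protein, was at 90.5 ± 16.8 CPM against 31.2, and Nppc, the precursor of C-type natriuretic peptide, at 111 ± 33.9 CPM against 41.0. Dcdc2a, a doublecortin domain protein, was at 64.3 ± 21.6 CPM against 22.7, Maob, a monoamine-degrading enzyme, at 45.8 ± 10.9 against 16.5, and Rxrg, a retinoid receptor, at 44.2 ± 10.0 against 15.4. Scn7a, a sodium channel, was at 30.7 ± 12.7 CPM against 10.9, and Lat2, an adaptor protein, at 22.4 ± 6.11 against 6.48. Of these 10 genes, Gpr83, Krt12, Coch and Dcdc2a were highest in Exc_17, and all lay above the mean of the other clusters in 9 of 9 libraries. In the same libraries Cd63, a tetraspanin of vesicles, ranged from 3.14 to 50.6 CPM.

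**Figure D1:**
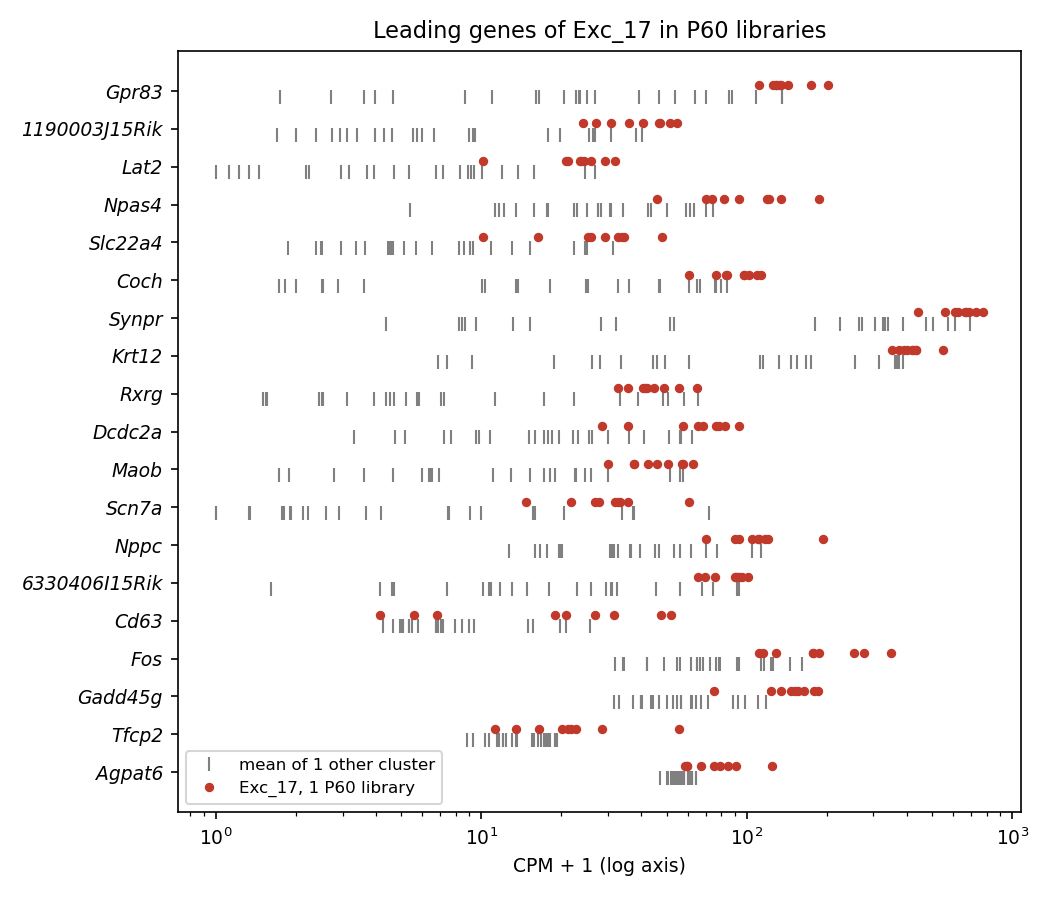
Leading genes of Exc_17. Each red point is the CPM + 1 of 1 P60 library with at least 10 Exc_17 cells (9 libraries, log axis) and each grey tick is the mean of 1 of the other 25 excitatory clusters. For Gpr83, points between 110 and 201 CPM lie around and above the highest tick (Exc_11, 135 CPM), whereas Cd63 spans 3.14 to 50.6 CPM between libraries.

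Among the genes lowest in Exc_17 were markers of other projection types. Bcl11b, a transcription factor of subcortically projecting neurons, was at 1.43 ± 2.04 CPM against 43.3 and at 274 CPM in Exc_26. Tshz2, a marker of near-projecting neurons, was at 5.00 ± 3.24 CPM against 95.8, with 2099 CPM in Exc_21. Penk, an opioid precursor, was at 1.14 ± 1.49 CPM against 31.6, Plcxd3 at 0.543 ± 1.08 against 43.3 and Igfbp4 at 0.424 ± 0.997 against 37.6. Of 6 corticothalamic markers, 1 lay above the mean of the other clusters (median log2 ratio -2.04) and their sum was at rank 8 (618 against 774 CPM, of which Crym made up 536 ± 66.9 CPM), with Foxp2 (1.32 ± 1.65 CPM against 20.7) and Syt6 (0.0928 ± 0.278 against 11.6) near 0. All 9 extratelencephalic markers lay below the mean of the other clusters (median log2 ratio -1.13).

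Of the layer genes, Cux2, known from superficial layers, was at 107 ± 19.9 CPM (rank 6 of 26), Rorb, known from layer 4, at 116 ± 27.9 CPM (rank 5) and Tcap at 101 ± 33.5 CPM (rank 5). Etv1, which marks layer 5, was at 10.7 ± 8.90 CPM against 97.1 CPM over the other clusters (rank 22), and Fezf2 was at 35.3 ± 17 CPM (rank 13). Above the mean of the other clusters were 2 of 7 markers of layer 2/3 intratelencephalic neurons (summed level 212 against 268 CPM), 3 of 6 of layer 4/5 (215 against 166) and 6 of 11 of layer 5 (312 against 281). These levels do not place Exc_17 in a single layer by the lists used here, and no layer name is given to it.

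By its whole profile Exc_17 was closest to Exc_16 (Pearson r of log2 levels 0.989 over 7775 genes), followed by Exc_6 (0.986), Exc_8 (0.983) and Exc_15 (0.967), with Exc_21 at the other end (0.851). These correlations are across genes within the same libraries and share their depth. Exc_8 is not in the group in which the study put Exc_17, and was added here after its levels were seen. Of 6007 genes at 20 CPM or more in either cluster, only 9 were over 2-fold higher and 25 over 2-fold lower in Exc_17 than in Exc_16. The calcium-binding protein Calb1 was higher (20.3 against 5.22 CPM, mean log2 difference within libraries 1.87 ± 0.93, SD, n = 9), as were Rprm (59.9 against 18.5 CPM, 1.79 ± 0.66) and S100a6 (87.7 against 30.6 CPM, 1.49 ± 0.66), each in 9 of 9 libraries. Lower were S100b (4.32 against 28.2 CPM, -3.01 ± 1.49), Expi (29.9 against 160 CPM, -2.51 ± 0.96) and Etv1 (10.7 against 42.2 CPM, -2.12 ± 0.74), also in 9 of 9. S100b overlaps Dip2a on the other strand.

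Against Exc_6, 7 genes were over 2-fold higher and 72 lower of 6057. Of these, 1 of the 7 and 56 of the 72 held their direction in every library. Rprm was the higher gene that did (log2 difference 1.41 ± 0.60), whereas Aifm3 was higher in 7 of 9 and Rdh11 in 6 of 9. Among the lower genes were Rpgrip1 (10.9 against 78.6 CPM, -2.76 ± 0.32), D17H6S53E (8.95 against 51.8 CPM), the growth factor signalling inhibitor Spry2 (16.4 against 103 CPM, -2.65 ± 0.76) and the heat shock factor Hsf2 (6.20 against 43.9 CPM), each in 9 of 9 libraries, and S100b (4.32 against 24.9 CPM) in 8 of 9. Against Exc_15, in the 7 libraries with 10 cells of both, 67 genes were higher and 96 lower of 6244. Gpr83 separated the pair (147 against 16.4 CPM, 3.11 ± 0.52), and Cux2 (111 against 15.6 CPM), S100a6 (73.9 against 8.26) and Adam33 (21.5 against 1.29) went the same way in 7 of 7 libraries. S100b (5.56 against 262 CPM, -5.80 ± 1.40), Etv1 (12.7 against 271 CPM, -4.57 ± 0.88) and the calcium-binding protein Calb2 (0.257 against 21.4 CPM) went the other way. Against Exc_8, 31 genes were higher and 37 lower of 6056. Fezf2 (35.3 against 9.29 CPM, 1.92 ± 0.65), Scn7a (30.7 against 7.17) and Expi (29.9 against 6.59) were higher in 9 of 9 libraries, whereas Calb1 (20.3 against 140 CPM, -2.78 ± 0.78) and Ddit4l (18.3 against 140, -2.97 ± 0.88) were lower. Etv1 and S100b thus ran from Exc_15 down to Exc_17, and Calb1 from Exc_8 down to Exc_17 and Exc_16.

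The 5 genes in which Exc_17 stood farthest above its next cluster were Npas4 (1.38-fold above Exc_6), Gadd45g (1.24-fold above Exc_7), Fos (1.23-fold above Exc_8), Tfcp2 (1.23-fold above Exc_4) and Agpat6 (1.21-fold above Exc_6). The first 3 are known to be induced by activity or stress. Npas4, a transcription factor induced by calcium influx (NCBIM37 chr19:4984355-4989971, minus strand), was at 102 ± 42.4 CPM in Exc_17 (44.7 to 186 in the 9 libraries) against 31.7 CPM over the other clusters. Fos (NCBIM37 chr12:86814840-86818223, plus strand) was at 196 ± 81.0 CPM (110 to 349) against 76.9, Gadd45g, a stress-inducible regulator of DNA demethylation, at 145 ± 33.1 CPM (74.5 to 185) against 59.1, and Arc at 65.0 ± 27.4 CPM (19.9 to 95.4) against 29.4. All 4 were highest in Exc_17 of the 26 clusters and above the mean of the others in 9 of 9 libraries. Summed over a list of 20 immediate early genes, Exc_17 was at 925 CPM, the first of 26 clusters, followed by Exc_11 (847 CPM) and Exc_8 (825 CPM). The mean of the other clusters was 634 CPM.

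For the transcription factors Npas4 and Fos, 300 bases around the transcription start (250 before to 50 after) are printed. Gadd45g, which stood between them in the ratio to the next cluster, is not printed. The sequences are those of RefSeq on build GRCm38.p6, which is not the build of the counts. Capitals mark TGACG or CGTCA, the core of the cAMP response element, at which activity-dependent factors such as CREB are known to bind. Npas4 lies on the minus strand at chr19:4989922-4990221 and Fos on the plus strand at chr12:85473640-85473939.
Npas4: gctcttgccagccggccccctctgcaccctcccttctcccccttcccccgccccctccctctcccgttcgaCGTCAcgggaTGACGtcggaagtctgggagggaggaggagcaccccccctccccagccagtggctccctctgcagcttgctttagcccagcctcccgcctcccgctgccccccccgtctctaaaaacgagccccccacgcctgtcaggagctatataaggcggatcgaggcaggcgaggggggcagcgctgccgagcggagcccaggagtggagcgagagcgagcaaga
Fos: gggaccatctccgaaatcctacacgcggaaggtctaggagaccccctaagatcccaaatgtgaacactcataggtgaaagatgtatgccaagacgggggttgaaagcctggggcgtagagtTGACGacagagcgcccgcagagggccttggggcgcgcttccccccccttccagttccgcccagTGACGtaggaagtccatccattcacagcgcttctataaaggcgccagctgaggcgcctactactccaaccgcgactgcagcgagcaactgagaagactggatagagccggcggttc
Each sequence holds 2 such cores, and in Npas4 they lie close to each other. Searched on both strands, the core was present in 21% of 27025 promoters of the same length (1 per gene) and in 11 of 16 immediate early genes with an entry in the table (68.8%). The complete element TGACGTCA, which contains both cores and was also searched, was in 1.88% of all promoters and in Btg2 and Dusp1 of the list. The CArG box was in 1.57% of all promoters and in 0 of the 16. Sites farther than 250 bases before the start were not searched, and Arc, Egr1, Egr3 and Ier2 had no entry. The 0 therefore does not show that immediate early genes lack this box. The promoter of Gadd45g held 0 cores. A match of letters is a description and says nothing of binding here.

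Not all immediate early genes were high in Exc_17. Of the 20 genes, 12 lay above the mean of the other clusters. Of the 11 at 20 CPM or more in Exc_17, 9 lay above that mean and 6 were at rank 1 to 3, against 50.9% and 13.8% of all genes at this level, a floor set in Exc_17 itself. Besides Fos, Npas4 and Arc, Junb (25.7 to 261 CPM against a mean of 61.4) and Dusp1, a phosphatase that shuts off kinase signalling (32.4 ± 7.47 against 17.3), were highest in Exc_17. Egr1 was at 205 ± 24.7 CPM (rank 14), and Jund was at 28.3 ± 9.80 CPM (rank 25). The sum also depended on the library. Exc_17 came first of the clusters in libraries 7, 9, 10, 11 and 12, and it was at rank 2 in library 3, rank 4 in library 8, rank 6 in library 6 and rank 9 in library 5. In CPM it ranged from 586 in library 6 to 1362 in library 12. At P21 the sums were 1719, 2094 and 1767 CPM (ranks 3, 2 and 4). Heat shock proteins, which rise on stress, summed to rank 4, with Hspa1a at rank 1 (69.0 CPM against 38.5) and Hsph1 at rank 16. The part of dissociation in these levels was not tested.

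**Figure D2:**
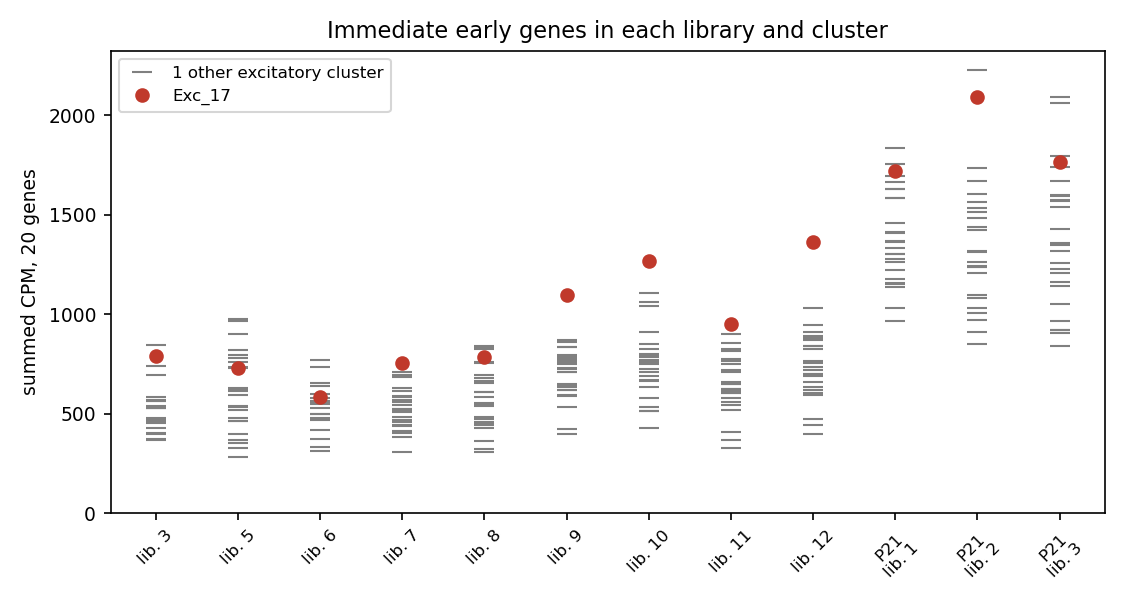
Summed CPM of 20 immediate early genes by library. The red point is Exc_17 and each grey dash is 1 other excitatory cluster with at least 10 cells in that library. Exc_17 is the highest in libraries 7 and 9 to 12, lies within the other clusters in libraries 3, 5, 6 and 8, and reaches 1719 to 2094 CPM at P21, where the median of the other clusters is 1288 to 1362 CPM against 524 to 754 CPM at P60.

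Detection in single cells was compared after thinning. After every cell was thinned to 2000 UMIs, Npas4 was detected in 19.9% of the 423 Exc_17 cells, against 11.4% in Exc_6, 10.9% in Exc_8, 4.32% in Exc_15 and 11.6% in Exc_16. In endothelial cells, which should lack Npas4, it was detected in 0.534% of 3557 cells (9 shallower cells left out). Without thinning the shares were 60.5% in Exc_17, at a median of 14494 UMIs, and 1.12% in endothelial cells, at a median of 3871. The median of 15688 UMIs given earlier for the Exc_17 cells is that of the deposited table of cells. Fos was detected in 27.7% of thinned Exc_17 cells against 8.97% to 20.7% in the 4 close clusters, but it was in 97.2% of endothelial cells, so that no background can be read from those. At least 2 of 5 genes (Npas4, Fos, Gadd45g, Nr4a1, Egr1) were detected in 29.8% of Exc_17 cells against 13.6% to 22.8% in the close clusters, and none of the 5 in 29.1% against 40.4% to 45.5%. By library, the share with at least 2 of the 5 genes lay between 14.3% (library 6) and 45.3% (library 12). Library 10 was at 44.0%, and all libraries but 10 and 12 lay below the pooled 29.8%. Npas4 was detected in 31% of Exc_17 cells in library 10 and 30.2% in library 12. It was in 20.8% in libraries 3 and 9, 15.1% in library 11 and 14.8% in library 7. In libraries 5 and 6 (9.52% each) and 8 (4.55%) it was below the pooled shares of Exc_6, Exc_8 and Exc_16. The close clusters were not split by library, so these comparisons are not matched by library. Cells of 1 library are not replicates, and these shares were not tested.

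Receptor and channel genes showed moderate differences. GABA-A receptor subunits summed to rank 6, with Gabra4 at rank 1 (135 against 103 CPM) and Gabrb1 at rank 3 (131 against 104 CPM). Of the glutamate receptor genes, 4 of 9 AMPA, 3 of 7 NMDA, 3 of 10 metabotropic and 0 of 5 kainate receptor genes lay above the mean of the other clusters. Of those at 20 CPM or more it was 4 of 8, 1 of 4, 2 of 6 and 0 of 0, against 50.9% of all genes at this level. Gria2, the AMPA receptor subunit that limits calcium entry, was lowest of all clusters in Exc_17 (437 against 682 CPM) and Grin1, the obligatory NMDA receptor subunit, was at rank 25 (58.1 against 93.2). Grm2, a presynaptic metabotropic receptor, was higher (45.3 against 23.5 CPM, rank 3). Among potassium channels, Kcnab2 (39.9 against 64.5 CPM, rank 24) was low and Kcnab1 (83.7 against 49.5) and Kcnip4 (158 against 110) were high. Of the peptides, the growth factor Bdnf was at 275 CPM against 147 (rank 3) and Adcyap1, the precursor of PACAP, at 71.4 against 30.4 (rank 2). Cdh8 was the highest cadherin by ratio (60.4 against 27.8 CPM, rank 2), while Cdh13 was low (41.5 against 94.6). The cadherin list summed to rank 25 (657 against 822 CPM, median log2 ratio -0.48). At 20 CPM or more, 3 of 11 cadherins, 11 of 25 potassium channel genes and 6 of 10 peptide genes lay above the mean of the other clusters. Nuclear genes of oxidative phosphorylation were at rank 25 of the summed level, with a median log2 ratio of -0.12 to the mean of the other clusters. Of 77 at 20 CPM or more, 19 lay above that mean (50.9% of all genes at this level) and 27 were at the lowest 3 ranks (11.3% of them).

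The share of Exc_17 among excitatory cells was compared between ages and treatments. At P60 it was 1.56% and 3.79% in the saline libraries of maintenance, 3.07% and 2.41% at 48 h and 2.86% and 3.80% at 15 days, and at P21 it was 1.13%, 2.07% and 1.37%. The ages overlapped in library 2 alone, which had 5 Exc_17 cells. The mean of 2.91% ± 0.857 (SD, n = 6) at P60 was above 1.52% ± 0.487 (n = 3) at P21, by 1.39 percentage points (two-sided exact permutation test over 84 regroupings, p = 0.0476, the smallest possible being 0.0119). As a share of all retained cells the difference was 0.752 points (exact permutation p = 0.131), and the call was lost on leaving out any single library other than library 2 (exact permutation p = 0.0714 to 0.107). The authors named P21 cells by their correlation with P60 clusters, so the share at P21 also depends on that step, whose part was not tested. Captured cells passed a density gradient, and these are shares of captured cells.

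**Figure D3:**
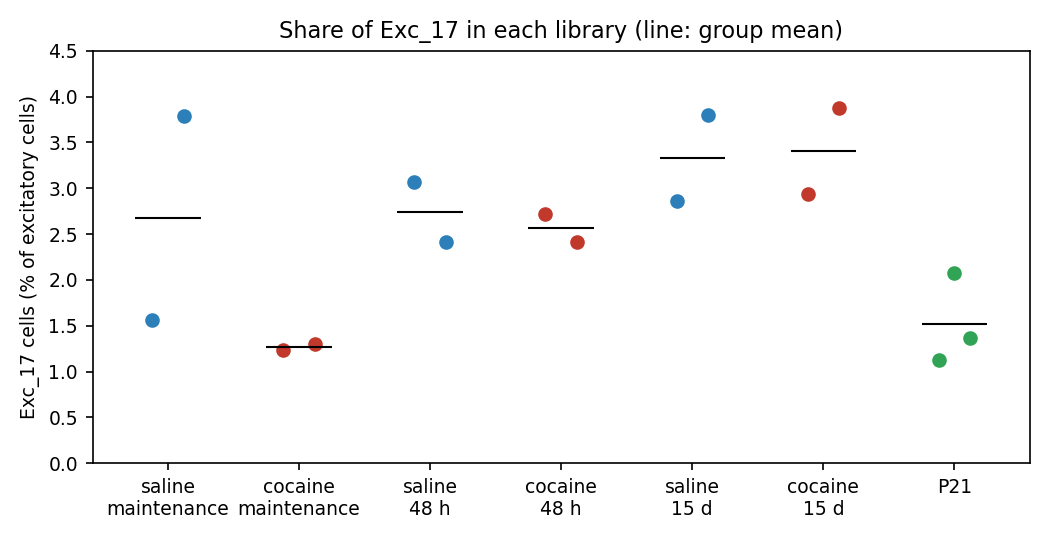
Share of Exc_17 among the cells of excitatory clusters (percent, linear axis from 0). Each point is 1 library and each line a group mean. The 3 P21 libraries lie between 1.13% and 2.07%, below all saline P60 libraries but library 2, and the cocaine libraries of maintenance at 1.23% and 1.30%.

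In cocaine libraries the share was 2.41% ± 1.02 (n = 6) against 2.91% ± 0.857 (n = 6) in saline libraries, a difference of -0.502 points that did not pass a two-sided exact permutation test within phases (216 regroupings, p = 0.343, the smallest possible being 0.00926). At maintenance both cocaine libraries (1.23% and 1.30%) lay below both saline libraries (1.56% and 3.79%). The shares overlapped at 48 h (2.41% to 2.72% against 2.41% to 3.07%) and at 15 days (2.94% to 3.88% against 2.86% to 3.80%).

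Between P21 and P60, many genes differed in Exc_17. The P60 saline mice had been food restricted, trained, catheterised and given saline, whereas the P21 mice were untreated. Age cannot be told apart from this procedure in any comparison of ages here. P21 cells were named by correlation with P60 clusters, whose part in the differences was not tested. P60 saline libraries (n = 5) were compared with P21 libraries (n = 3) by the quasi-likelihood test of edgeR, and a gene was called at a Benjamini-Hochberg adjusted p under 0.05 and a change over 1.5-fold. Of 5100 genes tested, 688 (13.5%) were called, 289 (5.67%) higher and 399 (7.82%) lower at P60, and 1545 (30.3%) had an unadjusted p under 0.05. The libraries of both ages did not overlap for 578 of the called genes (249 higher, 329 lower), against 10.5% of all tested genes for higher and 11.8% for lower. DESeq2 called 474, of which 452 were shared, and with cells of the excitatory class alone edgeR called 611, of which 577 were shared. Without P21 library 2 the count was 426. With no filter on low counts, 848 of 14873 genes were called, 458 higher and 390 lower. The balance of rises and falls thus turned with the filter.

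Ass1, the enzyme that makes argininosuccinate in the citrulline cycle (NCBIM37 chr2:31325727-31376192, plus strand), had the largest rise among the genes whose libraries did not overlap. It was at 95.4, 142, 190, 146 and 149 CPM in saline P60 libraries and at 3.28, 10.3 and 0 CPM at P21 (log2 change 4.81 ± 0.424, SE, adjusted p = 7.31e-09). Tnnt2, the cardiac troponin T, was at 107 to 140 CPM at P60 and at 45.9, 17.1 and 14.4 CPM at P21 (log2 change 2.13 ± 0.292, adjusted p = 1.08e-05). The non-muscle myosin Myh14 rose by 2.31 and the myosin light chain Myl6b by 1.74 on the log2 scale, and Myl6b lost its call without P21 library 2 (adjusted p = 0.0539). Further rises were those of the B cell adaptor Blnk (2.47), the vesicle protein Nrsn2 (2.17), the guanylate cyclase Gucy2g (2.01), Anxa11 (1.97), Spin2 (1.85) and Glt8d2 (1.83).

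Of the genes with a lower level at P60, Marcksl1, a substrate of protein kinase C in growing neurites (NCBIM37 chr4:129190825-129193229, plus strand), had the smallest adjusted p of those named. It was at 276, 350 and 260 CPM at P21 and at 34.7, 32.0, 51.3, 52.6 and 58.4 CPM at P60 (log2 change -2.57 ± 0.182, adjusted p = 4.95e-11), so that the ages were far apart. The histone gene Hist1h2bc was at 59.1, 130 and 91.5 CPM at P21 and at 4.57 to 11.9 CPM at P60 (-3.65 ± 0.366, adjusted p = 8.78e-08). Lypd1, which binds nicotinic receptors, fell by 2.12 on the log2 scale, Tmem42 by 2.33, Tmem93 by 2.40 and the respiratory chain subunit Cox5a by 2.22. Against all 9 P60 libraries, Tmem93 (-1.49, adjusted p = 0.177) and Cox5a (-1.31, adjusted p = 0.221) were no longer called, and Cox5a lost its call when any single library other than library 12 was left out. C1qc (-3.55), C1qb (-3.27) and Sparc (-3.40), genes of microglia and of glial and vascular cells, were also called, but they did not pass the filter on low counts once the 7 P21 cells of other classes were left out. The microglial markers named above moved with them.

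**Figure D4:**
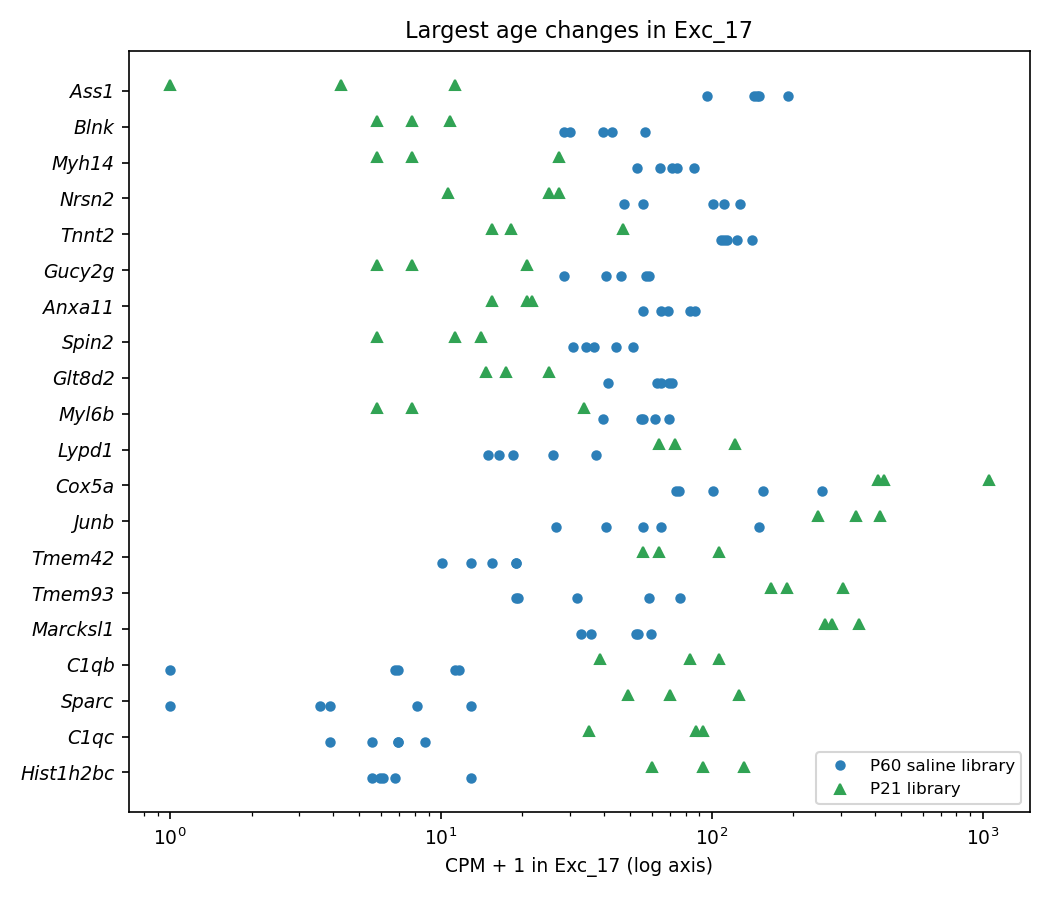
The 10 largest rises and 10 largest falls from P21 to P60 in Exc_17 among genes whose ages do not overlap. Each blue point is the CPM + 1 of 1 saline P60 library (5) and each green triangle of 1 P21 library (3), on a log axis. Ass1 runs from 0 to 10.3 CPM at P21 to 95.4 to 190 CPM at P60, whereas Marcksl1 runs from 260 to 350 CPM down to 32.0 to 58.4 CPM.

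Several gene lists had called members in a single direction, and over all genes tested 7.82% were lower and 5.67% higher at P60. With no filter on low counts, more genes were called higher (458) than lower (390). Of 19 tested genes of axon growth and young neurons, 5 were lower and 0 higher (median log2 change -0.23, against -0.0068 over all genes tested). These were Marcksl1, Marcks (194, 243 and 202 CPM at P21 against 92.5 to 134), the growth-cone protein Gap43 (978, 1827 and 1839 CPM at P21 against 851 to 1043), and the collapsin response proteins Dpysl2 (-0.89 ± 0.147) and Crmp1 (-0.66 ± 0.175). In Gap43 the lowest P21 library lay within the P60 range. Dcx, a marker of young neurons, was at 48.1 ± 9.50 CPM at P60 and did not pass (0.037, adjusted p = 0.947). Of 12 immediate early genes tested, 5 were lower at P60 and 0 higher (median -0.89). Egr1 fell from 299, 446 and 428 CPM to 159 to 229 CPM (-0.95 ± 0.157, adjusted p = 0.000135), Nr4a1 by 1.20 and Jund by 1.03 on the log2 scale. Junb (-2.23) and Btg2 (-1.32) were called too, but not with cells of the excitatory class alone (adjusted p = 0.0578 and 0.281). Fos (-0.55, adjusted p = 0.250) and Npas4 (-0.048, adjusted p = 0.936) did not pass. The members also differed in quality between the ages, with a median mitochondrial share of 2.65% to 3.86% at P21 and 1.85% to 2.28% at P60 and a median of 9085 to 12458 and 9893 to 18189 UMIs per cell, whose part was not tested. Of 10 cadherins, Pcdh19 (-1.78 ± 0.279), Cdh2 (-0.72) and Pcdh10 (-0.69) were lower and 0 higher.

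Synaptic genes were split, and over all genes tested 5.67% were higher and 7.82% lower at P60. Snap25 (0.59 ± 0.137) and Syt5 (0.71 ± 0.141) were higher at P60 and Slc17a7 (-0.59 ± 0.160), Syn1 (-0.65) and Syt7 (-0.59) lower, of 17 tested. Snap25, Slc17a7 and Syt7 lay close to the 1.5-fold limit and were not called with cells of the excitatory class alone. The NMDA receptor genes Grin1 (-0.89 ± 0.251) and Grin3a (-1.24 ± 0.321) were lower, 2 of 4 tested, Grm5 was lower (-0.76) and Gabra3 higher (0.94). Of 13 adult neuron genes tested, Mapt, which encodes tau, was higher (0.70 ± 0.136), and the phosphatase inhibitor Ppp1r1a (-1.55 ± 0.179) and the dendritic protein Ddn (-1.40 ± 0.278) were lower. Among 12 tested epigenetic regulators that the study names, a list drawn from these same libraries and no independent evidence, Prmt1, an arginine methyltransferase (144, 85.7 and 86.7 CPM at P21 against 296 to 384, log2 change 1.60 ± 0.190), and Ezh1 (1.66) were higher. The DNA methyltransferase Dnmt3a (65.6, 127 and 91.5 CPM against 26 to 43.6, -1.40 ± 0.252), Yeats4 (-1.51) and Ube2d3 (-0.69) were lower. In oxidative phosphorylation 4 of 77 genes were higher (Ndufv1, Sdha, Uqcrc1, Uqcrc2) and 3 lower (Atp5d, Cox5a, Cyc1), which beside the shares of all genes is no result about this list.

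The leading genes of Exc_17 were chosen for their level at P60, in libraries that include the 5 saline ones, which favours a higher level at P60 over P21. Gpr83 rose from 52.5, 51.4 and 38.5 CPM at P21 to 110 to 201 CPM at P60 (log2 change 1.64 ± 0.241, adjusted p = 2.66e-05), Maob by 1.44 and Nppc by 1.07 on the log2 scale. Krt12 (0.23, adjusted p = 0.318) and Coch (0.42, adjusted p = 0.207) did not pass, and Synpr passed on p (adjusted p = 0.0399) but not on size (0.45). The change in Krt12 was smaller in Exc_17 than in the other clusters (difference of the log2 changes -0.60 ± 0.118, adjusted p = 0.000276), and those in Gpr83 (0.027, adjusted p = 0.995), Maob (0.46, adjusted p = 0.852) and Nppc (0.044, adjusted p = 0.990) did not pass the test of a difference. The transcription factors Meis2 (1.15 ± 0.218) and Tox (1.00) were higher at P60 and Etv1 (-1.61 ± 0.515) lower. Tox was not called with cells of the excitatory class alone (adjusted p = 0.0763).

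Whether the difference between P21 and P60 was the same in Exc_17 and in the other excitatory clusters was tested as an interaction. The cells of all other clusters of a library were summed, and the library was a block. Age and the procedure of the P60 mice cannot be told apart here either. Of 12204 genes, 64 (0.524%) were called, 34 (0.279%) with a higher and 30 (0.246%) with a lower change in Exc_17, and 1024 (8.39%) had an unadjusted p under 0.05. The count was 39 without library 12 or P21 library 2 and 40 without P21 library 1. DESeq2 called 21, of which 20 were shared, and 35 were called against Exc_6, Exc_15 and Exc_16 alone, of which 24 were shared. Of these 35, 13 had a higher and 22 a lower change in Exc_17, so the balance turned. With excitatory class cells on both sides 47 were called, of which 43 were shared. In simulated data this test recovered 23.5% of 2-fold and 59% of 4-fold differences. Most of the age differences above were thus not shown to be particular to Exc_17, nor to be shared with the other clusters.

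Among the differences, Expi, a secreted protease inhibitor, fell in Exc_17 from 161, 137 and 164 CPM to 8.68 to 63.2 CPM, while the other clusters were at 31.6 to 38.7 CPM at P21 and 28.5 to 44.3 CPM at P60 (log2 difference of the changes -1.92 ± 0.211, adjusted p = 7.57e-16). In P60 libraries Expi was at 160 CPM in Exc_16, the closest cluster. The part that the naming of P21 cells had in the fall was not tested. Actb, the cytoskeletal actin, stayed within 1863 to 1909 CPM at P21 and 1552 to 2458 CPM at P60 in Exc_17, whereas it was at 3118 to 3684 CPM in the other clusters at P21 and 1942 to 2793 CPM at P60 (0.70 ± 0.0741, adjusted p = 7.81e-17). The cell cycle regulator Rprm was at 23.0, 37.7 and 53.0 CPM at P21 and 46.3 to 56.0 CPM at P60 in Exc_17, but went from 462 to 646 CPM to 190 to 345 CPM in the other clusters (1.75 ± 0.273). Rprm is one of the corticothalamic markers used here. In P60 libraries it was at 23.1 CPM in Exc_6, 9.87 CPM in Exc_15 and 18.5 CPM in Exc_16, far below the summed other clusters. The part of the makeup of that sum in the Rprm difference was not tested. Efhd2, a calcium-binding protein, rose in Exc_17 from 30.8 to 42.7 CPM to 50.2 to 127 CPM, with 134 to 157 CPM at P21 and 95.3 to 134 CPM at P60 in the other clusters (1.83 ± 0.256), but against the 3 close clusters the difference was 0.75 (adjusted p = 0.550).

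The difference between P21 and P60 in Fos and Npas4 was larger in the other clusters than in Exc_17. Both genes were singled out above for their level in Exc_17 at P60, in libraries that include the saline ones used here. This choice favours a higher change in Exc_17, so their calls are no independent evidence. Fos went from 209 to 228 CPM to 52.9 to 132 CPM in the other clusters, and from 249, 374 and 404 CPM to 128 to 349 CPM in Exc_17 (difference of the log2 changes 0.78 ± 0.120, adjusted p = 2.17e-07). For Npas4 the other clusters went from 55.1 to 89.8 CPM to 24.4 to 59.7 CPM, and Exc_17 from 151, 141 and 72.2 CPM to 73.1 to 186 CPM (0.78 ± 0.175, adjusted p = 0.00298). Fos kept its call with excitatory class cells alone (0.65, adjusted p = 0.000345), but not by DESeq2 (0.70, adjusted p = 0.149) and not against the 3 close clusters (0.49, adjusted p = 0.0674). Fos and Npas4 were the 2 called of 19 immediate early genes tested, against 0.524% of all genes, and Egr1 (-0.32, adjusted p = 0.309) and Junb (0.05, adjusted p = 0.977) did not pass. In the other clusters the markers of mature oligodendrocytes summed to 330 to 708 CPM at P21 and 70.6 to 183 CPM at P60, those of endothelial cells, nearly all of which held Fos, to 90.0 to 145 and 28.4 to 59.8 CPM, and those of astrocytes to 740 to 834 and 352 to 592 CPM. The part of these cells, beyond leaving out the other classes, and of the makeup of the mixture was not tested.

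**Figure D5:**
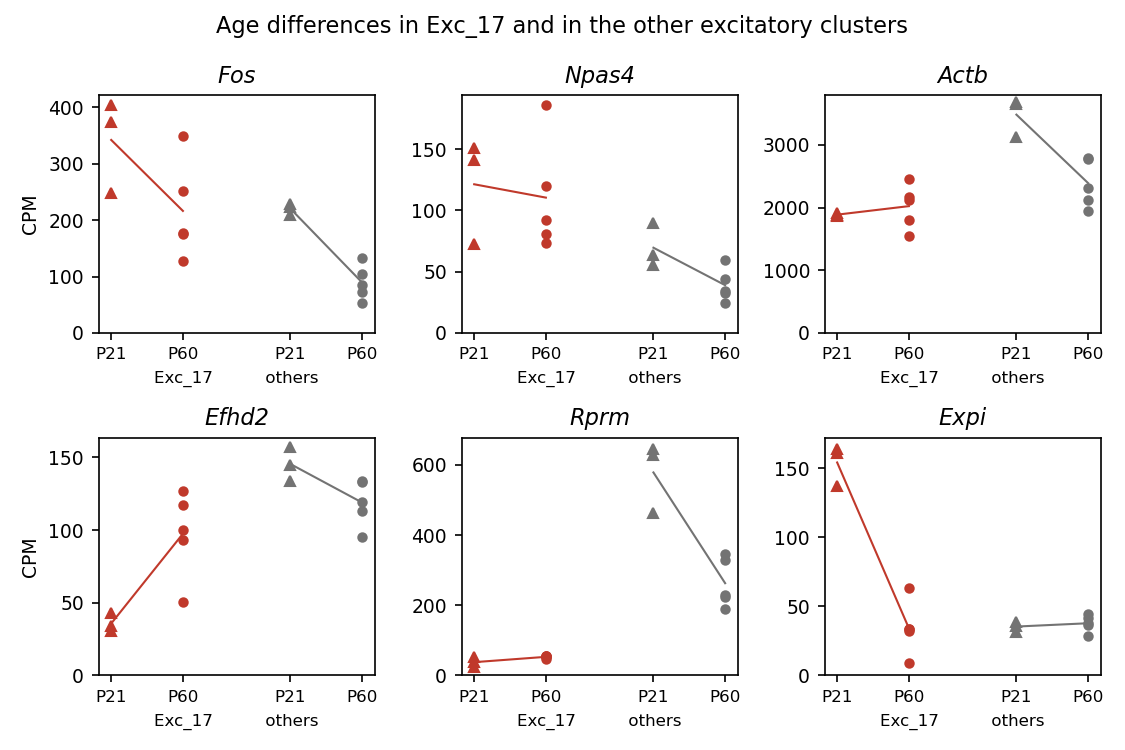
Age differences in Exc_17 (red) and in the other excitatory clusters summed (grey), in CPM on linear axes from 0. Triangles are P21 libraries (3), circles are saline P60 libraries (5), and lines join the means. Fos falls from 209 to 228 CPM to 52.9 to 132 CPM in the other clusters, while the ages overlap in Exc_17. Expi goes from 137 to 164 CPM at P21 to 8.68 to 63.2 CPM at P60 in Exc_17, and lies between 28.5 and 44.3 CPM at both ages in the other clusters.

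Cocaine and saline libraries were compared within each phase by edgeR, with a mean for each group. At maintenance no cocaine library had 10 Exc_17 cells, so libraries with at least 5 were used (7 and 9 cells against 5 and 24). Of 5799 genes, 0 were called (0%), 293 had an unadjusted p under 0.05 (5.05%), and DESeq2 called 0 (130 at an unadjusted p under 0.05). Krt12 had the smallest p (380 and 549 CPM in saline and 271 and 207 CPM in cocaine libraries, log2 difference -1.10 ± 0.233, adjusted p = 0.133). At 48 h, 0 of 6492 genes were called (0%) by edgeR or DESeq2, and 303 (4.67%) and 84 had an unadjusted p under 0.05. The smallest p was that of Cdh13, a cadherin (22.8 and 7.70 CPM in saline and 54.6 and 62.7 CPM in cocaine libraries, 2.15 ± 0.514, adjusted p = 0.587). With 21 to 27 cells per library, a simulated 2-fold change was recovered in 32% of genes at 48 h and a 4-fold change in 84%.

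At 15 days of withdrawal, where each library had 53 to 84 Exc_17 cells, 121 of 6492 genes were called (1.86%), 120 higher (1.85%) and 1 lower (0.0154%) in cocaine libraries, and 531 (8.18%) had an unadjusted p under 0.05. DESeq2 called 19, of which 14 were shared. In the same 4 libraries the markers of mature oligodendrocytes summed to 191 to 192 CPM in saline and 128 to 136 CPM in cocaine libraries, those of endothelial cells to 45.7 to 52.5 against 23.4 to 36.7 CPM, inhibitory markers to 20.8 to 28.6 against 13.4 to 15.3 CPM and excitatory markers, Nrgn among them, to 4975 to 5055 against 5608 to 6039 CPM, each without overlap. Astrocyte markers were at 503 against 507 to 514 CPM and microglial markers overlapped. Their part in the calls was not tested. The count rested on single libraries: it was 24 without library 9, 67 without library 10, 28 without library 11 and 253 without library 12. Fbxl15, a subunit of a ubiquitin ligase, was at 7.94 and 15.5 CPM in saline and 54.9 and 48.4 CPM in cocaine libraries (log2 difference 2.18 ± 0.325, adjusted p = 7.30e-06), and it overlaps Cuedc2 on the other strand. Ccdc85b was at 12.9 and 37.0 CPM against 88.3 and 74.3 CPM (1.78 ± 0.265, adjusted p = 2.30e-05). Tmem203 (1.88), the histone variant H2afx (1.82) and Ppp1r1b, the phosphatase inhibitor DARPP-32 (1.75), were called as well, each losing its call without library 11. Sc4mol, a sterol synthesis enzyme, was the gene that was lower (174 and 188 CPM against 102 and 125 CPM, -0.64 ± 0.161, adjusted p = 0.0153), and it was called neither by DESeq2 nor without any 1 of the 4 libraries. DESeq2 gave no adjusted p for Fbxl15, Tmem203, H2afx, Ccdc85b and Ppp1r1b.

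Of the genes that the study names for cocaine or withdrawal, chosen on these libraries, Nrgn, a postsynaptic calmodulin-binding protein, was at 743 and 1090 CPM in saline and 1979 and 1693 CPM in cocaine libraries at 15 days (1.03 ± 0.134, adjusted p = 9.69e-07). The vesicle GTPase Rab3a was at 1442 and 2175 CPM against 2766 and 2808 CPM (0.65 ± 0.147, adjusted p = 0.0111), and the peptide precursor Cck at 481 and 1810 CPM against 4218 and 3354 CPM, which did not pass (1.76 ± 0.683, adjusted p = 0.645). In all 3 the saline library 11 was the lowest. Nrgn was also at 780 and 1187 CPM against 2052 and 1728 CPM in the other excitatory clusters of the same libraries. Other called genes of the lists were Ppp1r1a (0.67), Fezf2 (0.82), Yeats4 (1.40), the respiratory chain subunits Cyc1 (1.25) and Uqcrfs1 (0.99), and Cox4nb (1.05), which the list of oxidative phosphorylation holds by its name. In that list 3 of 77 tested genes were called higher, against 1.85% of all genes. Its median log2 difference was -0.043, and 25 of the 77 genes had a positive difference, so the list as a whole was not higher. Of 14 immediate early genes tested at 15 days, 0 were called, which with 1.86% called over all genes is no result about these genes. Fos was at 252 and 349 CPM in saline and 186 and 275 CPM in cocaine libraries (-0.35, adjusted p = 0.586).

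The cocaine difference of Exc_17 was then compared with that of the other excitatory clusters. Over the withdrawal phases 0 of 12338 genes were called (0%), 469 (3.80%) had an unadjusted p under 0.05 and DESeq2 called 0 (127 at an unadjusted p under 0.05). At 15 days alone, a comparison added after the data were seen, 1 gene was called (0.00811%), and 415 (3.36%) had an unadjusted p under 0.05. It was Myl4, an atrial myosin light chain (NCBIM37 chr11:104411977-104457067, plus strand), at 139 and 122 CPM in saline and 308 and 281 CPM in cocaine libraries, with 240 and 247 CPM against 276 and 260 CPM in the other clusters (difference 1.03 ± 0.120, adjusted p = 1.13e-13, and 1.03 by DESeq2, adjusted p = 7.48e-06). The difference within Exc_17 did not pass alone (1.20 ± 0.301, adjusted p = 0.160), and Myl4 was at 119 and 316 CPM in saline and 99.4 and 185 CPM in cocaine libraries at 48 h. It overlaps several predicted genes on the other strand. Averaged over both withdrawal phases, 3 genes (0.0462%) were called in Exc_17 itself (408, or 6.28%, at an unadjusted p under 0.05), all higher in cocaine libraries: Ly6h (0.61 ± 0.121), Mlf2 (0.63 ± 0.129) and the transcription elongation factor Rtf1 (0.76 ± 0.166). DESeq2 called 0 (148 at an unadjusted p under 0.05), the count went from 0 to 83 on leaving out 1 library (83 without library 12, and 0 without library 3, 5, 6, 7 or 9), and 0 were called over all 3 phases in libraries with at least 5 cells. With phase as a block in the withdrawal libraries alone, which leaves library 3 out, 59 were called, all higher. Whether 48 h and 15 days differ was not tested.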

How the data were processed

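Single cells of mouse PFC were captured by droplets in 15 libraries, after papain digestion and a density gradient. The authors deposited raw UMI counts per gene and cell, aligned to mm9 (NCBIM37) with Cell Ranger, and a table of the cells they kept after filters that included double droplets, with classes and clusters made in Seurat 2.1.0. The same deposited table gives the mitochondrial share of each cell as a fraction. No further doublet filter was applied here. The members and gene lists were chosen with earlier results of these data known.

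UMIs of the members were summed per library, without 13 mitochondrial and 143 ribosomal protein genes (25989 of 26145 genes kept), and scaled to CPM. Libraries with at least 10 members entered, except at maintenance, where no cocaine library had 10 and at least 5 were required. The comparison planned over 3 phases therefore covers 2. Levels of a cluster are means of CPM over the P60 libraries with at least 10 of its cells, compared as log2(mean + 1) without a test. The SD of a ratio to the other clusters is that of the log2 ratios within single libraries. Log2 differences against a close cluster are means of the differences within libraries. Contrasts were fitted with edgeR 4.0.16 (TMM scaling, filterByExpr, robust quasi-likelihood test, 1 mean per group) in R 4.3.3 with limma 3.58.1, and called at a Benjamini-Hochberg adjusted p under 0.05 and over 1.5-fold. Interactions set Exc_17 against the summed other clusters with the library as a block. DESeq2 1.42.0 was an alternative. Shares were tested by exact permutation over libraries. Scripts ran in Python 3.11.15 with numpy 2.4.6, scipy 1.17.1, pandas 2.3.3 and matplotlib 3.10.9. The fits were tested on simulated counts with 200 changed genes, where edgeR recovered 59.5% of 2-fold and 87.5% of 4-fold changes in the comparison of ages.

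Replicates are libraries, each of 2 pooled mice, and p-values measure the spread between them. Intervals from UMIs would cover counting error only. Genes named are the 15 highest by ratio to the other clusters, the 5 highest to the next cluster and the 5 lowest, the 5 highest and lowest against each close cluster, the 10 largest rises and falls with age whose libraries do not overlap, up to 5 rises and falls per cocaine contrast or else the 3 smallest p, the 5 smallest adjusted p per interaction, and members of 38 gene lists. A few genes that this rule names are not reported here. Promoter sequences came from RefSeq (GRCm38.p6). The joined matrix of all libraries was not used, since it repeats the counts, and 0 columns of other samples were present.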

Additional observations from a re-analysis of the deposited data

Results flagged for a closer look

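In 46 groups of 4 to 10 libraries, Dixon's test was applied to the highest and lowest value, which chance would flag in about 1 in 20 groups, and 8 values stood apart. Over the 9 P60 libraries, Lat2 was at 9.13 CPM in library 5 (19.9 to 30.8 CPM in the others), Krt12 at 549 CPM in library 3 (352 to 433), Gadd45g at 74.5 CPM in library 6 (122 to 185), Igfbp4 at 2.98 CPM in library 11 (0 to 0.835) and Tshz2 at 0 CPM in library 7 (2.38 to 9.41). Over the 5 saline libraries, Glt8d2 was at 40.5 CPM in library 3 (62.0 to 70.5), Hist1h2bc at 11.9 CPM in library 12 (4.57 to 5.78) and C1qb at 0 CPM in library 5 (5.78 to 10.7). In library 5, 2 UMIs amount to 9.13 CPM. The value of Lat2 there and those of Igfbp4, Tshz2, Hist1h2bc and C1qb thus rest on few UMIs.

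The age change of Exc_17 differed from that of the other excitatory clusters in 64 genes by the test of the difference itself. The log2 difference of the changes was 0.78 for Fos, -1.92 for Expi, 0.70 for Actb and 1.83 for Efhd2. Fos had been singled out for its level at P60 and was not called by DESeq2. Neither Fos nor Efhd2 was called against Exc_6, Exc_15 and Exc_16 alone. For the cocaine change at 15 days the same test called 1 gene, Myl4, with a log2 difference of 1.03.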

How the results depend on the processing

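No paired analysis was possible because the replicate numbers of the libraries follow accession order and name no shared mouse or day. Leaving out 1 library at a time gave 426 to 735 called genes between ages (426 without P21 library 2), 39 to 73 for the age interaction (39 without library 12 or P21 library 2, 40 without P21 library 1), 24 to 253 for cocaine at 15 days, 0 to 0 at 48 h, 0 to 2 at maintenance (2 without library 2), 0 to 83 over the withdrawal phases and 0 to 1 for the cocaine interaction. The share differed between ages by 1.20 to 1.67 points and between treatments by -0.874 to -0.131 points, and as a share of all cells by 0.752 points between ages. DESeq2 called 19 genes at 15 days, 0 over the withdrawal phases and 21 for the age interaction. Over the withdrawal phases 18 were called without a filter on low counts, 59 with phase as a block and library 3 left out (0 when library 3 alone was left out) and 0 over 3 phases with at least 5 cells per library. Against Exc_6, Exc_15 and Exc_16 the age interaction called 35 genes (13 higher, 22 lower). Without a filter on low counts, 848 were called between ages (458 higher, 390 lower) and 2 at maintenance. In P21 libraries 88 genes lay over 2-fold above the other clusters, and Cd63 turned to a log2 ratio of -0.67. The causes were not tested. Requiring 20 cells could not be fitted at maintenance, and in the other contrasts within Exc_17 it left the same libraries. Alternatives with excitatory class cells, at least 5 cells and Exc_8, and the interaction at 15 days, were chosen after seeing the data. At 48 h a simulated 2-fold change was recovered in 32% of genes and a 4-fold change in 84%.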
